A study of Mus musculus with 6 samples.

Results

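The integrin chains and the adhesion genes that work beside them were followed in mouse T cells driven towards the Th17 state. The list held 40 genes of the 24421 in the deposited table: 18 integrin alpha chains, 8 beta chains and 14 adhesion receptors, ligands, cytoplasmic adaptors and tetraspanins, all found there by symbol. Wild-type naive CD4 T cells, taken from spleen as primary cells, were cultured under Th17 conditions in IMDM with 10% fetal bovine serum. The pemafibrate group (samples 3, 7 and 8) had received 10 nM of this selective modulator of the nuclear receptor PPARalpha until day 2, and the vehicle group (samples 3, 4 and 7) had received vehicle. Cells were then kept for 2 more days in medium for which the labels name serum and no drug. Mouse strain, age and the nature of the vehicle are not stated in the labels. Nor do they say whether the samples of a group were separate animals or cultures, so p-values rest on a spread that may be technical.

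Integrins are surface receptors made of an alpha and a beta chain that reach the surface together. On T cells they hold the cell to vessel walls, to other cells and to matrix, and they switch from a bent to an extended form when talin and kindlin bind the tail of the beta chain. The alphaL chain pairs with beta2 to form LFA-1, which binds the ICAM proteins. The alpha4 chain pairs with beta1 or beta7 and steers lymphocytes to VCAM-1 or to the gut addressin MAdCAM-1, alphaE with beta7 binds E-cadherin, and alpha3 with beta1 binds laminins.

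Values are RPKM, reads per kilobase of gene scaled to library size, which allow levels of different genes to be set side by side. The libraries held 14935351 to 18322467 reads. Of the 40 members, 25 averaged 0.5 RPKM or more across all 6 samples and were among the 11360 genes tested by limma on log2(RPKM + 0.5), and 15 lay below that level. T cell markers summed to 1619 to 1648 RPKM in pemafibrate samples and 1600 to 1658 RPKM in vehicle samples over 8 genes, among them Cd3e and Cd4. Th17 markers summed to 1350 to 1643 RPKM in pemafibrate samples and 1803 to 2003 RPKM in vehicle samples over 6 genes, most of it Il17f. Ccr6 went the other way (mean of 33.3 RPKM in pemafibrate samples and 23.0 RPKM in vehicle samples). Limma called 2 of the 6 genes (adjusted p under 0.05), against 0.352% of all tested genes (0.132% as higher and 0.220% as lower). The highest sum among the marker lists of non-T cells was that of 8 dendritic cell genes, with 27.6 to 30.1 RPKM in pemafibrate samples and 24.4 to 29.0 RPKM in vehicle samples. Nearly all of it came from Cd74, H2-Ab1 and H2-Aa, and Clec9a was at 0. Macrophage markers (8 genes) summed to 9.51 to 15.7 RPKM in pemafibrate samples and 11.1 to 13.5 RPKM in vehicle samples, and platelet markers (7 genes, Gp9 and Gp6 at 0) to 0.644 to 0.864 RPKM and, in vehicle samples, 0.566 to 1.43 RPKM. NK cell markers (5 genes, Klra8 at 0) summed to 2.68 to 3.04 RPKM in pemafibrate samples and 3.94 to 4.18 RPKM in vehicle samples. Nearly all of that was Klre1 (mean of 2.70 RPKM in pemafibrate samples and 3.90 RPKM in vehicle samples), and Eomes went the other way (0.141 RPKM in pemafibrate samples and 0.112 RPKM in vehicle samples). The Th17 and NK sums did not overlap between the groups, and their part in the results below was not tested. Pemafibrate 3 and vehicle 7 lay together at one end of the second principal component of all tested genes (scores of 10.6 and 12.1, 24.9% of the variance), and pemafibrate 8 and vehicle 4 at the other end (-10.4 and -9.37).

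The cells carried RNA for a narrow set of integrins, and the alphaL, beta2, beta7, beta1 and alpha3 chains held most of it. Itgal had 151.4, 156.8 and 163.9 RPKM in pemafibrate 3, 7 and 8, against 157.9, 164.5 and 155.9 RPKM in vehicle 3, 4 and 7. The samples of the groups overlapped, and the log2 difference was -0.02 ± 0.04 (SE). Itgal made up 67.5% to 71.8% of the summed RPKM of all 18 alpha chains in pemafibrate samples and 64.6% to 68.6% in vehicle samples. Of the summed RPKM of the 8 beta chains, Itgb2 made up a mean of 51.2% in pemafibrate samples and 49.0% in vehicle samples. Itgb7 made up 24.9% in pemafibrate samples and 26.9% in vehicle samples, and Itgb1 23.2% in pemafibrate samples and 23.3% in vehicle samples. Fermt3 (172 RPKM over all samples), Itgal (158) and Selplg (151.5) had the highest mean levels of the list.

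**Figure D1:**
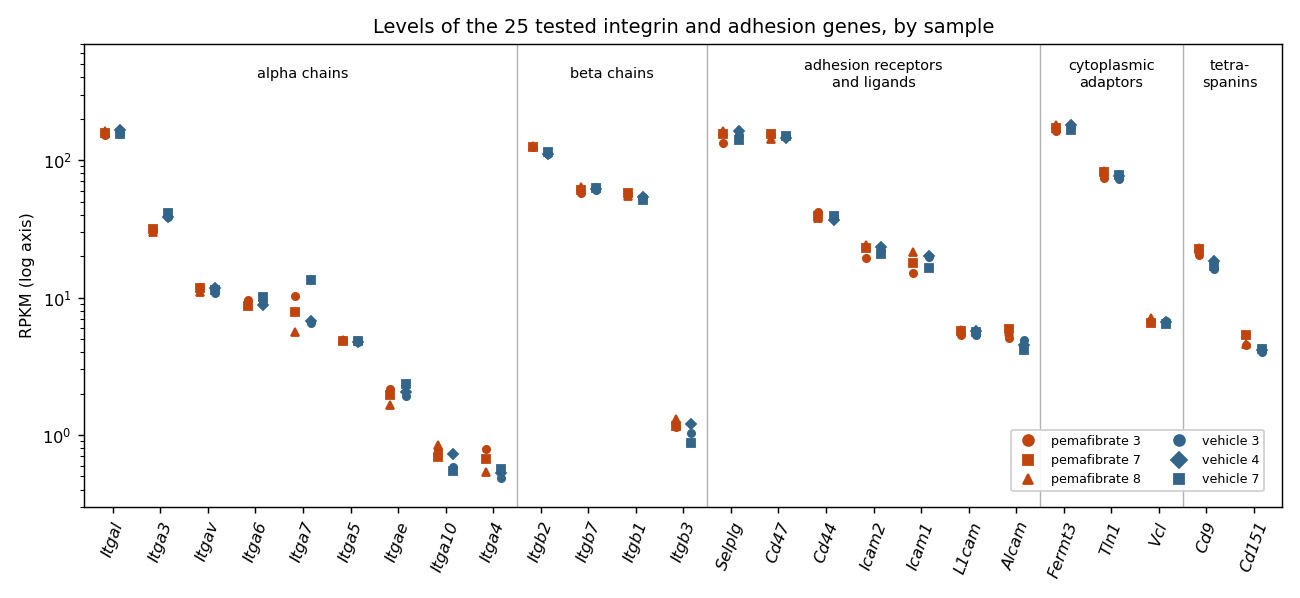
RPKM on a log axis for the 25 tested integrin and adhesion genes, each point 1 sample, with pemafibrate samples left of vehicle samples. Mean levels run from 0.598 RPKM for Itga4 to 172 RPKM for Fermt3, and for most genes the samples of both groups lie on top of each other.

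Itga3, which encodes the alpha3 chain of a laminin receptor, fell after pemafibrate and was the 1 member that passed the test. It measured 31.1, 31.5 and 30.0 RPKM in pemafibrate 3, 7 and 8, against 38.4, 38.6 and 41.2 RPKM in vehicle 3, 4 and 7. Every pemafibrate sample lay under every vehicle sample, and the gap between the groups was wider than the spread within either. The mean was 30.8 ± 0.772 RPKM in pemafibrate samples, from 8255 reads in all, and 39.4 ± 1.596 RPKM in vehicle samples, from 10878 reads (SD, n = 3 each). The log2 difference was -0.35 ± 0.04 (SE), a fitted fold of 0.786, with a limma adjusted p of 0.0362 (Benjamini-Hochberg over 11360 genes). Limma called 1 of 25 members, against 0.352% of all tested genes (0.132% as higher and 0.220% as lower). In bulk RNA, fewer cells that carry a transcript and less of it per cell cannot be told apart. The call for Itga3 was lost when any of the 6 samples was left out (adjusted p from 0.0782 to 0.15), while the log2 difference stayed between -0.366 and -0.315. Voom, a count-based fit on reads recovered from the RPKM values, gave an adjusted p of 0.00100 and called 1 of 33 members, where it called 1.25% of all genes (0.464% higher and 0.784% lower). The authors' deposited table gives Itga3 a log2 fold change of -0.36 and an adjusted p of 4.21e-07.

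Itga3 lies on chromosome 11 (95044475 to 95076844, GRCm38) and has 2 annotated starts in the promoter table of RefSeq (GRCm38.p6), 7516 bases apart on the minus strand. The deposited values are per gene and do not say which start was used. The 250 bases before each start are shown because Itga3 carried the clearest difference, with those of Itgb1, its partner chain, and of Cd9, the tested member with the next smallest limma p. They are written 5′ to 3′ on the strand of the gene, with the Sp1 motif GGGCGG (either strand, no overlap with other motifs searched in these windows) in capitals.
Itga3, outer start, chr11:95076715-95076964, minus strand: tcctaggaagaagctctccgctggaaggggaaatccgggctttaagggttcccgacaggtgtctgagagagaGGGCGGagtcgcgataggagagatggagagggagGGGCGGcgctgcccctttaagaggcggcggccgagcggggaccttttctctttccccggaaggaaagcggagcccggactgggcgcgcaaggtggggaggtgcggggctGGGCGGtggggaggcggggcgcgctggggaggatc
Itga3, inner start, chr11:95069199-95069448, minus strand: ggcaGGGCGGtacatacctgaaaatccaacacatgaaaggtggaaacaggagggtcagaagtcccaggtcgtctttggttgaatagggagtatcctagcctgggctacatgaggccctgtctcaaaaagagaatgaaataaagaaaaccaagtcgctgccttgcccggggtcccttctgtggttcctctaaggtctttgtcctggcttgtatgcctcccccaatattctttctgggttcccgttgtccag
Itgb1, chr8:128685404-128685653, plus strand: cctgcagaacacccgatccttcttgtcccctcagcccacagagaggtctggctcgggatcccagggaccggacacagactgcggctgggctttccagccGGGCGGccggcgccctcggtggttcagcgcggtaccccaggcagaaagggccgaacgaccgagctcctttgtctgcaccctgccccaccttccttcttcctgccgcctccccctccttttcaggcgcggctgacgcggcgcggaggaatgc
Cd9, chr6:125494761-125495010, minus strand: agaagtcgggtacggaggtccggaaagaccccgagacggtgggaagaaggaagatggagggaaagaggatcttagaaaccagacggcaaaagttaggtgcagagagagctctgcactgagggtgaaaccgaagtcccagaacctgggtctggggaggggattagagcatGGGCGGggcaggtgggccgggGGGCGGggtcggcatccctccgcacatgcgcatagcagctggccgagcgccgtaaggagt
The window before the outer Itga3 start had a GC content of 67.6% and 3 matches to GGGCGG, and the inner one had 50.8% and 1 match. The Itgb1 window held 1 match and the Cd9 window 2. GGGCGG was present in 32.7% of the 32851 promoter windows of the same length, and in 17 of the 34 windows of members. Those 17 belong to 14 of the 29 members with an entry. None of the 4 windows held the nuclear receptor motif AGGTCA on either strand, which 14% of all windows held. The direct repeat of AGGTCA with any 1 base between the copies, the type of element that PPAR receptors bind, was in 0.0335% of all windows and in 0 of the 34 windows of members. The AP-1 motif TGANTCA was in 0 of the 4 windows and in 6.75% of all windows. The RUNX motif TGTGGT was in 1 of the 4, before the inner Itga3 start, and in 14% of all windows (both strands searched). A match or its lack describes these letters in these windows only.

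Among Itgb1 and its other alpha partners, none of those tested passed. Itgb1 measured 57.1, 57.4 and 55.3 RPKM in pemafibrate samples and 53.9, 54.2 and 51.7 RPKM in vehicle samples. The groups did not overlap, but the difference was small, at 0.09 ± 0.04 on the log2 scale (limma adjusted p = 0.507). The ratio of Itga3 to Itgb1, chosen for description after the values were seen, was 0.545, 0.548 and 0.542 in pemafibrate 3, 7 and 8 and 0.712, 0.713 and 0.798 in vehicle 3, 4 and 7. The 12 alpha chains that can pair with beta1 summed to 69.7, 66.1 and 62.0 RPKM in pemafibrate samples and 71.2, 72.3 and 82.2 RPKM in vehicle samples, and Itga3 made up 44.6% to 48.3% of that sum in pemafibrate samples and 50.2% to 53.9% in vehicle samples. The sum was 1.12 to 1.22 times the Itgb1 level in pemafibrate samples and 1.32 to 1.59 times in vehicle samples. This ratio is also description only, because the sum contains Itga3 and so repeats its fall. The highest sum, in vehicle 7, also held 13.5 RPKM of Itga7, the highest value of that gene. Itgav, whose product pairs with several beta chains, had 12.0, 11.7 and 10.9 RPKM in pemafibrate samples and 10.8, 11.8 and 11.3 RPKM in vehicle samples, which overlapped. Itga6, another laminin receptor chain, averaged 9.10 ± 0.444 RPKM in pemafibrate samples and 9.45 ± 0.587 RPKM in vehicle samples. Itga5, the fibronectin receptor chain, averaged 4.89 ± 0.0804 RPKM in pemafibrate samples and 4.79 ± 0.0257 RPKM in vehicle samples (SD, n = 3 each). Neither passed limma (adjusted p of 0.872 for Itga6 and 0.935 for Itga5).

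**Figure D2:**
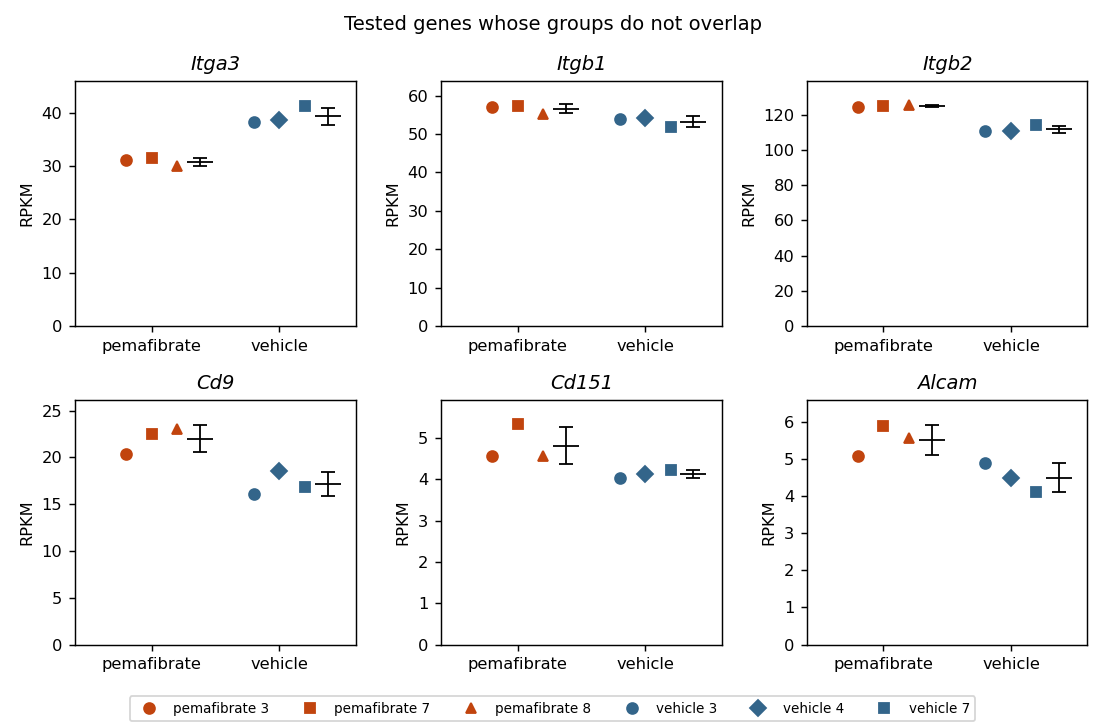
RPKM of the 6 of the 25 tested members whose groups did not overlap, on axes that start at 0. Each point is 1 sample, and the bar beside the points gives the mean ± SD (n = 3). In Itga3 the pemafibrate samples lie under the vehicle samples, and in Itgb1, Itgb2, Cd9, Cd151 and Alcam above them.

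Itgb2 encodes the beta2 chain, the partner of alphaL in LFA-1. It had 124, 125 and 126 RPKM in pemafibrate 3, 7 and 8, against 111, 111 and 114 RPKM in vehicle 3, 4 and 7. The pemafibrate samples lay close together and above every vehicle sample. The log2 difference was 0.16 ± 0.03 (SE) and did not pass limma (adjusted p = 0.114). Array weights, which give less weight to libraries that vary more, lowered the adjusted p to 0.0416 and called 3 of 25 members, where they called 1.23% of all tested genes (0.493% higher and 0.739% lower). Voom gave 0.0545, and the authors' deposited table gives 0.0627. The log2 ratio of Itgal to Itgb2 within each library was 0.28, 0.33 and 0.38 in pemafibrate samples and 0.52, 0.57 and 0.45 in vehicle samples. The difference of -0.18 gave an exact two-sided permutation p of 0.1, the smallest that 3 against 3 allows, and an adjusted p of 0.4 over the 4 ratios of partner chains tested.

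Itgal lies on chromosome 7 (127296139 to 127335137), and the genes of the other beta2 partners, Itgam, Itgax and Itgad, follow each other on the same chromosome between 128062640 and 128205504. These 3 genes, which mark myeloid cells and some lymphocytes, had next to no reads. Itgam had 11, 10 and 25 reads in pemafibrate samples and 21, 19 and 15 in vehicle samples. Itgax had 19, 16 and 9 reads in pemafibrate samples and 21, 12 and 12 in vehicle samples, and Itgad had at most 2 in any sample. No difference in them was detectable at this depth.

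The beta7 chain was abundant, but RNA for its alpha partners was scarce in both groups. Itgb7 had 57.8, 60.9 and 63.6 RPKM in pemafibrate samples and 60.8, 61.3 and 62.3 RPKM in vehicle samples. Itgae had 2.16, 1.95 and 1.66 RPKM in pemafibrate samples and 1.92, 2.06 and 2.34 RPKM in vehicle samples. Itga4 had 0.794, 0.674 and 0.536 RPKM in pemafibrate samples and 0.483, 0.530 and 0.570 RPKM in vehicle samples. The samples of the groups overlapped in all 3 genes, and none passed limma (adjusted p of 0.947, 0.839 and 0.788). Together the alpha4 and alphaE transcripts reached 2.59 ± 0.381 RPKM in pemafibrate samples and 2.63 ± 0.256 RPKM in vehicle samples (SD, n = 3 each), which is 0.0429 times the Itgb7 level in pemafibrate samples and 0.0428 times in vehicle samples. Over a counted length of 9832 bases, Itga4 had 93 to 143 reads in pemafibrate samples and 86 to 97 in vehicle samples. Its span also overlaps that of Cerkl, and although the library kit keeps strand, the strand setting of the counting is not given in the sources used here.

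**Figure D3:**
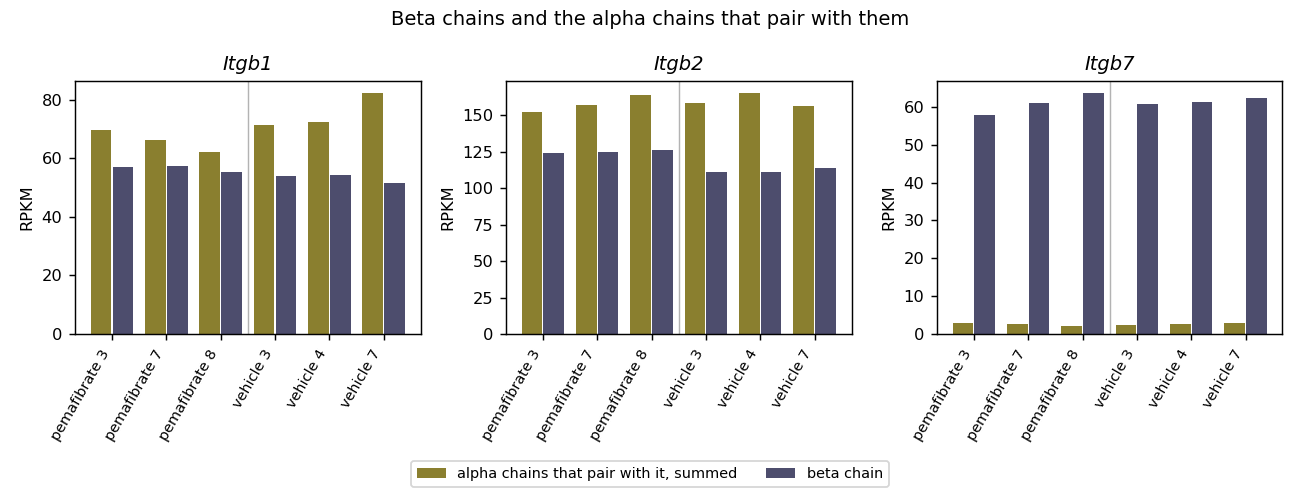
For Itgb1, Itgb2 and Itgb7, the RPKM of the beta chain and the summed RPKM of the alpha chains that can pair with it, by sample, with pemafibrate samples on the left. The alpha sums lie above the beta chain for Itgb1 and Itgb2 and at 2.19 to 2.95 RPKM for Itgb7, far under the chain itself.

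The ratios of alpha4 and alphaE to their beta chains varied as much within groups as between them. The log2 ratio of Itga4 to Itgb7 was -6.19, -6.50 and -6.89 in pemafibrate samples and -6.97, -6.86 and -6.77 in vehicle samples, a difference of 0.34 (exact two-sided permutation p = 0.3, adjusted p = 0.4). It was 0.172 without pemafibrate 3, 0.525 without pemafibrate 8 and 0.196 with 0.5 RPKM added to each chain. For Itga4 to Itgb1 the difference was 0.24 (exact permutation p = 0.3, adjusted p = 0.4), and 0.109, 0.37 and 0.0924 under the same 3 changes. For Itgae to Itgb7 it was -0.12 (exact permutation p = 0.6, adjusted p = 0.6) and turned to 0.02 without pemafibrate 8.

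Chains of other integrins were low or highly variable. Itga7, a laminin receptor chain known from muscle, had 10.2, 7.86 and 5.58 RPKM in pemafibrate 3, 7 and 8, against 6.53, 6.78 and 13.5 RPKM in vehicle 3, 4 and 7. Vehicle 7 was the highest sample and pemafibrate 8 the lowest, and the pooled SD within groups, 0.49 on the log2 scale, was the widest of the 25 tested members. The log2 difference was -0.13 ± 0.29 (limma adjusted p = 0.939) and turned to 0.19 without vehicle 7 and 0.08 without pemafibrate 8. Itgb3 had 1.14, 1.16 and 1.31 RPKM in pemafibrate samples and 1.03, 1.21 and 0.880 RPKM in vehicle samples, and Itga10, a collagen receptor chain, averaged 0.771 ± 0.0762 RPKM in pemafibrate samples and 0.621 ± 0.0967 RPKM in vehicle samples (SD, n = 3 each). Limma gave an adjusted p of 0.793 for Itgb3 and 0.761 for Itga10.

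Of the 15 members under 0.5 RPKM, Itga8 and Itgb6 had 0 reads in all 6 samples, which allows up to 3 reads per library. Itga2, the collagen receptor chain, had 17, 9 and 13 reads in pemafibrate samples and 7, 9 and 7 in vehicle samples. Its RPKM values of 0.220, 0.143 and 0.175 in pemafibrate samples lay above those of 0.0917, 0.125 and 0.0959 in vehicle samples, but voom on these few reads gave an adjusted p of 0.480. Itgb8, whose product with alphaV activates latent TGF-beta, had 18, 14 and 18 reads in pemafibrate samples and 12, 8 and 17 in vehicle samples (voom adjusted p = 0.664). F11r, which encodes the junctional adhesion molecule JAM-A, had 7, 9 and 9 reads in pemafibrate samples and 10, 18 and 13 in vehicle samples (voom adjusted p = 0.647). Itga2b, the platelet alpha chain, had 22 to 28 reads in pemafibrate samples and 24 to 33 in vehicle samples, and Itgb5, a beta partner of alphaV, had 15 to 19 in pemafibrate samples and 13 to 17 in vehicle samples. Itga1, Itga9, Itga11, Itgb4 and Vcam1 had at most 15 reads in any sample.

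The tetraspanins, membrane proteins that sit beside integrins and organise them, were both higher after pemafibrate without passing the test. Cd9 had 20.4, 22.5 and 23.1 RPKM in pemafibrate 3, 7 and 8, against 16.0, 18.6 and 16.9 RPKM in vehicle 3, 4 and 7. All pemafibrate samples lay above all vehicle samples, and the mean was 22.0 ± 1.43 RPKM in pemafibrate samples and 17.15 ± 1.28 RPKM in vehicle samples (SD, n = 3 each). The log2 difference was 0.35 ± 0.07 (SE). Limma gave Cd9 an adjusted p of 0.105, voom 0.0506 and array weights 0.0343. In the authors' deposited table its log2 fold change was 0.35 (adjusted p = 0.00972). Itga3 and Cd9 were the 2 of 40 members under an adjusted p of 0.05 in the authors' deposited table, where 1.19% of all 24421 genes were (0.479% higher and 0.713% lower). Cd151, which binds laminin-binding integrins such as alpha3beta1, had 4.56, 5.32 and 4.56 RPKM in pemafibrate samples and 4.04, 4.13 and 4.22 RPKM in vehicle samples. The groups did not overlap, with pemafibrate 7 well above the others, and the log2 difference was 0.20 ± 0.08 (limma adjusted p = 0.469), or 0.128 without pemafibrate 7.

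Alcam, which encodes the ligand of CD6, had 5.09, 5.89 and 5.58 RPKM in pemafibrate samples and 4.90, 4.48 and 4.13 RPKM in vehicle samples. The groups came close but did not overlap, and the log2 difference of 0.27 ± 0.08 did not pass limma (adjusted p = 0.337, against 0.0682 in the authors' deposited table). In the remaining tested receptors and ligands the groups overlapped. Cd44, the hyaluronan receptor raised on activated T cells, had 41.8, 39.2 and 37.7 RPKM in pemafibrate samples and 38.7, 36.7 and 39.2 RPKM in vehicle samples. Selplg, which encodes the selectin ligand PSGL-1, had 133, 156 and 162 RPKM in pemafibrate samples and 153, 164 and 140.1 RPKM in vehicle samples, with pemafibrate 3 and vehicle 7 the lowest of their groups. Cd47, whose product signals to the receptor SIRPalpha on phagocytes, averaged 150.3 ± 6.80 RPKM in pemafibrate samples and 148 ± 3.01 RPKM in vehicle samples. Icam2, another LFA-1 ligand gene, averaged 22.3 ± 2.55 RPKM in pemafibrate samples and 22.0 ± 1.33 RPKM in vehicle samples. L1cam, a cell adhesion gene best known from neurons, averaged 5.62 ± 0.213 RPKM in pemafibrate samples and 5.56 ± 0.175 RPKM in vehicle samples (SD, n = 3 each). Icam1, which encodes the main ligand of LFA-1, had 15.2, 17.9 and 21.4 RPKM in pemafibrate samples and 19.9, 20.1 and 16.4 RPKM in vehicle samples. Limma gave adjusted p of 0.830 for Cd44, 0.971 for Selplg, 0.926 for Cd47, 0.979 for Icam2, 0.971 for L1cam and 0.942 for Icam1.

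None of the 3 cytoplasmic adaptor genes passed the test, and the groups overlapped in each. Fermt3, the kindlin of blood cells, had 162, 172 and 179 RPKM in pemafibrate samples and 173, 181 and 166 RPKM in vehicle samples (log2 difference -0.02 ± 0.05, limma adjusted p = 0.949). Tln1, which encodes talin, had 74.1, 82.4 and 83.8 RPKM in pemafibrate samples and 73.5, 77.1 and 77.7 RPKM in vehicle samples (log2 difference 0.07 ± 0.05, limma adjusted p = 0.762). Vcl, the gene of the actin linker vinculin, averaged 6.75 ± 0.309 RPKM in pemafibrate samples and 6.63 ± 0.162 RPKM in vehicle samples (SD, n = 3 each, limma adjusted p = 0.942). Fermt3 overlaps Trpt1 and Vcl overlaps Ap3m1 on the genome, so some of their reads may belong to the neighbour or be missing. Across the whole list, 20 members overlap another RefSeq gene, and 9 of these overlap a gene of the deposited table. Itga7, which overlaps Mettl7b, is one of the 9, and the same limit holds for them.

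Across the list, 6 of the 25 tested members had groups that did not overlap, 5 with pemafibrate above and 1 below. Among all tested genes 15.0% did not overlap, 7.67% with pemafibrate above and 7.31% below. The same 6 members had an unadjusted limma p under 0.05, where 9.67% of all tested genes did (4.76% higher and 4.90% lower). The median log2 difference of the 25 was 0.03, with 16 above 0 and 9 below, against 0.0052 over all 11360 tested genes. By role, the median was -0.02 over 9 alpha chains, 0.12 over 4 beta chains, 0.02 over 7 receptors and ligands, 0.03 over 3 adaptors and 0.27 over 2 tetraspanins. The 14 other tetraspanins tested, described below, had a median of -0.02, with 6 above 0 and 8 below.

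**Figure D4:**
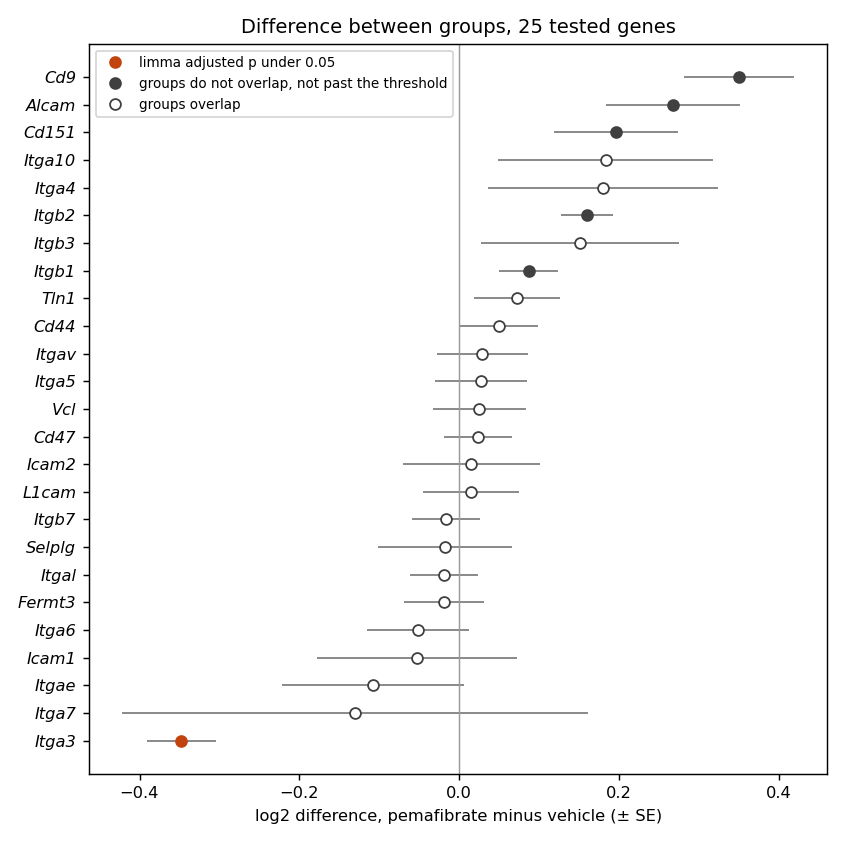
Log2 difference in log2(RPKM + 0.5), pemafibrate minus vehicle, with its standard error, for the 25 tested members. Itga3 at -0.35 is the member past the adjusted p of 0.05, and Cd9, at 0.35, is as far from 0 on the other side with a wider error.

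Within groups, many members deviated together in the same samples. Pemafibrate 3 and vehicle 7 were both under their group mean, and pemafibrate 8 and vehicle 4 both over it, in 8 members (Itgal, Itgb3, Selplg, Icam1, Icam2, Fermt3, Vcl and Cd9). The opposite held in 6 members (Itga3, Itga6, Itga7, Itgae, Cd44 and Cd47). These are the 4 samples at the ends of the second principal component of all tested genes. The share of all tested genes with either pattern was not counted. The counts therefore describe these members and are not read as particular to the list. In Itga3 the deviations were small, from -0.04 to 0.07 on the log2 scale, against 0.64 for Itga7 in vehicle 7. What sets these samples apart was not tested.

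**Figure D5:**
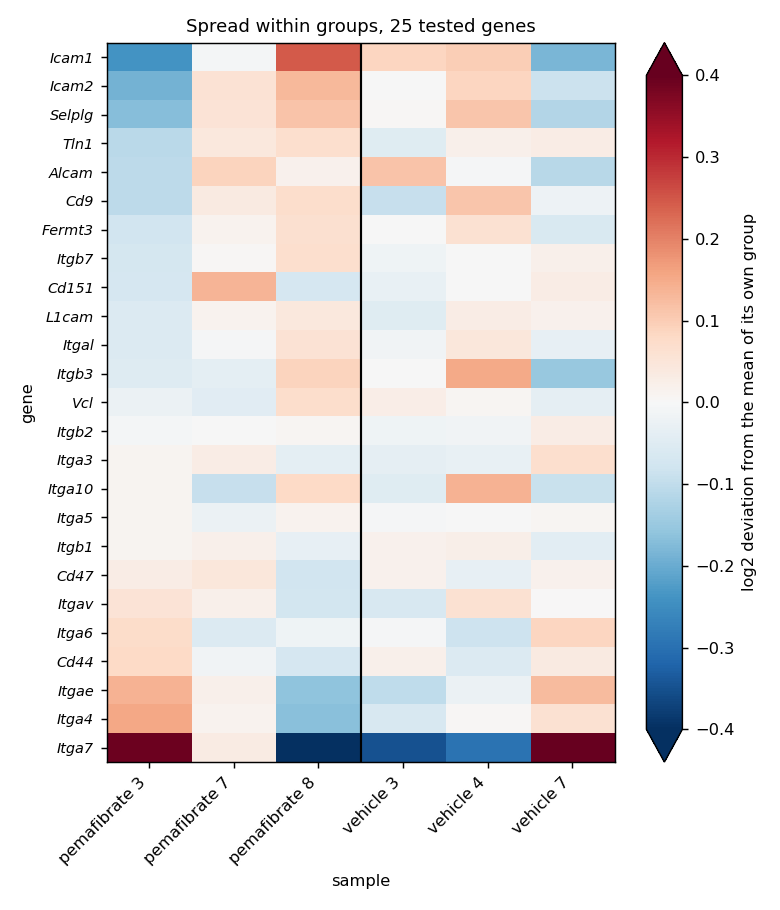
Deviation of each sample from the mean of its own group on the log2 scale, for the 25 tested members, sorted by the value in pemafibrate 3, with colours that saturate at 0.4. Pemafibrate 3 and vehicle 7 share colours in many genes, most strongly in Itga7 and Icam1.

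Other genes of the adhesion pathway were counted by list in the same fits. The shares over all genes to set beside the counts below are 0.352% for limma, 1.25% for voom and 9.67% for an unadjusted limma p under 0.05 (4.76% higher and 4.90% lower). Of 26 genes of integrin activation and its inhibition, 19 were tested and limma and voom called 0 (voom of 20). At an unadjusted p under 0.05 there was 1, Rasgrp1, an activator of Ras, which had 14.4, 14.1 and 15.7 RPKM in pemafibrate samples and 12.0, 13.3 and 12.9 RPKM in vehicle samples (limma adjusted p = 0.298). Apbb1ip, which encodes the talin recruiter RIAM, averaged 33.3 ± 0.899 RPKM in pemafibrate samples and 35.4 ± 1.36 RPKM in vehicle samples, and Rassf5, the gene of the Rap effector RAPL, 62.1 ± 2.66 RPKM in pemafibrate samples and 59.2 ± 2.24 RPKM in vehicle samples. Itgb1bp1, which encodes an inhibitor that binds the beta1 tail, averaged 21.5 ± 0.296 RPKM in pemafibrate samples and 20.7 ± 0.881 RPKM in vehicle samples (SD, n = 3 each). The median log2 difference of the list was 0.01.

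In the list of integrin-linked signalling and actin linkage, limma called 0 of 28 tested genes and voom called 1 of 30. An unadjusted limma p under 0.05 was found for 2 higher and 2 lower genes of the 28, where 9.67% of all tested genes had one. Tns1, which encodes the focal adhesion protein tensin, had 3.17, 3.24 and 3.27 RPKM in pemafibrate samples and 2.29, 2.49 and 2.44 RPKM in vehicle samples (limma adjusted p = 0.123, voom adjusted p = 0.00525). Src, a tyrosine kinase gene, averaged 3.35 ± 0.189 RPKM in pemafibrate samples and 4.09 ± 0.159 RPKM in vehicle samples (limma adjusted p = 0.274). Pxn, the gene of the focal adhesion adaptor paxillin, averaged 39.4 ± 1.05 RPKM in pemafibrate samples and 43.0 ± 1.14 RPKM in vehicle samples (limma adjusted p = 0.356), and Dock8, an activator of CDC42, 25.6 ± 1.65 RPKM in pemafibrate samples and 23.0 ± 0.707 RPKM in vehicle samples (SD, n = 3 each).

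Of 14 other tetraspanins tested, limma called 0 and voom 1 of 14. An unadjusted limma p under 0.05 was found for 2, both lower. Tspan13 had 85.4, 88.5 and 84.0 RPKM in pemafibrate samples and 99.0, 100.1 and 97.9 RPKM in vehicle samples, a log2 difference of -0.20 ± 0.03 (limma adjusted p = 0.0721, voom adjusted p = 0.0227). Cd53, a tetraspanin of blood cells, averaged 119 ± 7.36 RPKM in pemafibrate samples and 134 ± 7.91 RPKM in vehicle samples (limma adjusted p = 0.404). Both lay lower in every pemafibrate sample than in any vehicle sample, the other way from Cd9 and Cd151. Of all tested genes, 7.31% lay apart in this way with pemafibrate below and 7.67% with pemafibrate above. Cd63 averaged 0.929 ± 0.186 RPKM in pemafibrate samples and 0.662 ± 0.135 RPKM in vehicle samples, and Tspan31 41.9 ± 1.58 RPKM in pemafibrate samples and 39.8 ± 2.71 RPKM in vehicle samples (SD, n = 3 each).

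Among other adhesion receptors and ligands, 39 of 41 genes were matched and 20 tested, and limma called 1 lower, while voom called 1 higher and 1 lower of 27. An unadjusted limma p under 0.05 was found for 6 higher and 2 lower genes of the 20, where 4.76% of all tested genes were higher and 4.90% lower at that level. Cd24a, a lipid-anchored glycoprotein gene that can carry P-selectin binding sugars, fell to 29.1, 28.9 and 28.1 RPKM in pemafibrate samples, against 42.4, 45.4 and 44.0 RPKM in vehicle samples (limma adjusted p = 0.00592). Cd96 and Cd226, receptors that both bind the nectin-like protein CD155, lay higher in every pemafibrate sample without passing limma. Cd96 had 5.33, 5.22 and 5.63 RPKM in pemafibrate samples and 3.60, 4.29 and 3.82 RPKM in vehicle samples. Cd226 had 8.95, 8.43 and 8.06 RPKM in pemafibrate samples and 6.91, 6.61 and 6.53 RPKM in vehicle samples. Both had a limma adjusted p of 0.0882, and voom gave 0.0469 for Cd96 and 0.0545 for Cd226. Cd48, a ligand of CD2 and of CD244, averaged 72.6 ± 1.82 RPKM in pemafibrate samples and 62.2 ± 4.85 RPKM in vehicle samples (SD, n = 3 each, limma adjusted p = 0.215).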

How the data were processed

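The submitters' processing notes name HISAT2 2.1.0 and featureCounts 1.4.6, beside Trimmomatic 0.35, edgeR and bcl2fastq, and the build GRCm38 (mm10). The library kit keeps strand, per the labels; annotation and strand setting are not given in the sources used here. The authors deposited RPKM for 24421 genes in 6 samples, and beside them a p-value, an adjusted p-value and a log2 fold change of their own, per the file headers; their rank by p, a column of another kind, was not used. By comparison with the RPKM means, a positive value of theirs means higher in pemafibrate.

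The 11360 genes averaging 0.5 RPKM or more entered limma 3.58.1 (trend) in R 4.3.3 as log2(RPKM + 0.5), two-sided, adjusted by Benjamini-Hochberg and called under 0.05; this scale understates changes of low genes. Reads were recovered from the RPKM steps for all 16822 genes above 0 (100% of them whole within a relative tolerance of 1e-09), giving library sizes and counted lengths, and voom was run on the 11857 genes averaging 10 reads or more. Chain ratios were compared by exact permutation with scipy 1.17.1. Precision from reads covers counting error only. The procedure was also run on simulated reads. The simulation gave every gene the same spread beyond counting error, which real genes do not share, so no result here rests on it.

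Members, gene lists and tests were chosen with earlier results of these data known. Values by sample are given for members past limma, at an unadjusted p under 0.05 or with groups that do not overlap, and for the main T cell chains; for other lists, for called genes and up to 4 with the smallest p. Positions come from RefSeq (GRCm38.p6), which matched all 40 members. Alternatives were other pseudocounts (0.1 and 1), filters (none and 2 RPKM), scalings, weights, robust moderation, a block, voom and leaving out each sample. Figures were drawn with matplotlib 3.10.9.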

Additional observations from a re-analysis of the deposited data

How the results depend on the processing

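The fall of Itga3 kept its direction in all 16 alternatives (log2 difference from -0.366 to -0.315) and passed in 8 of them (adjusted p from 0.00100 to 0.237). Limma called 1 member and 40 genes in all. With array weights it called 3 members (Itga3, Itgb2 and Cd9) and 140 genes, and with no filter 0 members and 7 genes, where 6 of 38 members and 1396 of 16822 genes had an unadjusted p under 0.05. Voom called 148 genes. Without 1 sample limma called 0 members each time (3 to 6 of 25 at an unadjusted p under 0.05) and 0 to 25 genes (771 to 1176 of 11358 to 11376 at an unadjusted p under 0.05). In the lists of linked signalling, other tetraspanins and other adhesion genes voom called 1, 1 and 2 genes, against 0, 0 and 1 by limma.

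The labels do not say that equal title numbers pair samples, so the numbers are not taken as pairs. Deviations from the group mean in samples with the same number had correlations of 0.03 (number 3) and -0.0083 (number 7). Over all pairs of a pemafibrate and a vehicle sample they ran from -0.22 to 0.20. With so few matched numbers and 3 samples per group, these values cannot exclude pairing. With the title number as a block limma called 0 members (3 at an unadjusted p under 0.05) and 0 genes (653), with 1 residual degree of freedom.

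Members near 0, and the highly variable Itga7, changed sign under some settings. Cd47 was at -0.0025 with quantile normalization, Itga7 at 0.0045, Selplg at 0.0029 and Vcl at -0.0033 with array weights, and Icam2 at -0.0067 and Vcl at -0.0049 with the block. Without 1 sample the log2 difference ran from -0.0486 to 0.0084 for Itgal, -0.0026 to 0.0662 for Itgav, -0.33 to 0.19 for Itga7, -0.0498 to 0.0184 for Itgb7, -0.0768 to 0.0665 for Selplg, -0.175 to 0.0659 for Icam1, -0.0497 to 0.109 for Icam2, -0.052 to 0.0197 for Fermt3, -0.0094 to 0.0484 for Vcl and -0.0093 to 0.0424 for L1cam. The cause was not tested.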
